A study of Mus musculus with 11 samples.

Results

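The genes of the cytosolic ribosomal proteins were followed through a murine model of melanoma progression. The members are the measured genes whose mouse symbol consists of Rpl, Rplp or Rps and a number, optionally followed by a, x, l or l1. Symbols with -ps, which mark pseudogenes, were left out. The rule found 80 of 14272 genes, 50 of the large subunit (Rpl, with the stalk genes Rplp0, Rplp1 and Rplp2) and 30 of the small subunit (Rps). Of 85 symbols in the reference that fit the rule, 5 had no measured row (Rpl10l, Rpl39l, Rpl3l, Rps12l1 and Rps4l). The annotation lists 78 members as protein coding, and Rpl32l and Rpl6l as processed pseudogenes.

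Total RNA of 4 cell lines was sequenced after removal of ribosomal RNA, giving 3 libraries for each of the lines 4C, 4C11- and 4C11+ and 2 for melan-a, numbered 2 and 3. Melan-a, a line of normal mouse melanocytes on the C57Bl/6 background that became immortal in culture, was grown with 200 nM PMA, a phorbol ester. Cycles of detachment from the substrate turned it into 4C (pre-malignant, not tumorigenic), 4C11- (non-metastatic melanoma) and 4C11+ (metastatic melanoma), which were grown in the same medium without PMA. Melan-a and 4C11+ are epithelial in morphology, whereas 4C and 4C11- are mesenchymal-like. Each stage is represented by 1 line, so that a difference between stages cannot be told apart from a difference between lines, and the effect of PMA cannot be told apart from that of melan-a. The libraries of a line are labeled as replicates, and the sources used here do not say whether these were separate cultures. The p-values measure the spread between these replicates. The first melan-a replicate was not analysed here. In such bulk libraries, fewer cells with a transcript and less of it per cell cannot be told apart.

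A cytosolic ribosome joins a small subunit, which reads the mRNA, to a large subunit, which forms the peptide bond. Each subunit carries a set of ribosomal proteins, most of them present as a single copy, and their genes are among the most strongly expressed in dividing cells. Many of their mRNAs begin with an uninterrupted run of pyrimidines (the terminal oligopyrimidine tract), through which mTOR signaling adjusts their translation. A few proteins have paralogs that can replace them, and several bind the p53 regulator Mdm2 when they are free of ribosomes.

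All values are log2 CPM, read counts per gene scaled to a common library size. All libraries also share a highest value, as after a quantile normalization. The depth was read from the steps that single reads leave among the low values, and was roughly 3.50 to 7.42 M reads per library. This figure takes the low values as plain CPM, and a quantile normalization may have shifted it. Of the 12 melanocyte marker genes 11 were measured, and all 11 were called lower in 4C than in melan-a and higher in 4C11+ than in 4C11-. Tyr, which encodes tyrosinase, was at a mean of 0.52 in melan-a and at 8.52 in 4C11+. Of the fibroblast markers 5 of 10 were measured, and 4 of these were called higher in 4C than in melan-a. Of the keratinocyte markers 1 of 9 was measured, and of the immune markers 3 of 8.

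The members lay at the top of the expression range. A total of 67 had a mean over 8 and 8 more a mean between 7 and 8, against a median of 4.57 over all genes. In every library, 45 members were among the 500 genes with the highest values and 65 among the 1000 highest. Together they made up 4.07% to 5.72% of the summed linear values of a library. Per kilobase of transcript, the highest mean levels on the log2 scale were those of Rpl8 (10.81), Rps18 (10.71), Rplp0 (10.65) and Rplp1 (10.61). The lowest were those of the pseudogenes Rpl6l (2.25) and Rpl32l (3.18), of Rpl24 (3.30), of Rpl13a (4.98) and of Rpl22l1 (5.46).

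Ribosomal protein genes have many retrocopies, and reads that match several genes may be lost or assigned to another copy. How such reads were handled is not given in the sources used here. Over the members, a median of 30.4% of the 100-base stretches of the transcript also occurred in transcripts of other genes. This share was over 50% in 24 members and 0 in 6. It was 84.4% for Rpl10, 80.1% for Rpl24, 83.6% for Rpl36a, 81.4% for Rps12 and 83.6% for Rps6, whose levels are therefore uncertain. The same limit holds for the other members over 50%, among them Rpl11 (59.7%) and Rps7 (55.9%). The share was 16.8% for Rps25 and 30% for Rplp1, and none was found for Rpl22, Rps21 and Rps27l.

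The sequence around the start site is shown for 8 members on which the results below turn, to show where the pyrimidine run is found and where it is not. Each window holds 15 bases before and 15 bases from the start given by RefSeq (GRCm38.p6), on the strand of the gene. Where RefSeq gives several starts, the window with the longest run of C or T is shown. Capitals mark a run of at least 7 C or T that begins with C.
Rps25 (chr9:44407699-44407728, plus strand): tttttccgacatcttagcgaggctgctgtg
Rps27l (chr9:66946071-66946100, plus strand): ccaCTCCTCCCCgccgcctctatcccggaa
Rpl36a (chrX:134585639-134585668, plus strand): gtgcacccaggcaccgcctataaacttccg
Rps12 (chr10:23787195-23787224, minus strand): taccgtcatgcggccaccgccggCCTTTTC
Rpl35a (chr16:33056467-33056496, plus strand): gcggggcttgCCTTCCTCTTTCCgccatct
Rpl22 (chr4:152324421-152324450, plus strand): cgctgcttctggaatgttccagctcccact
Rpl22l1 (chr3:28805493-28805522, plus strand): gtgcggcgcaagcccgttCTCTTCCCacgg
Rps6 (chr4:86857353-86857382, minus strand): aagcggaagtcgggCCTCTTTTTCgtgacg
Such a run was present in 32 of the 59 members with a RefSeq start (54.2%) and in 1755 of 9869 other measured genes (17.8%). A gene was counted if any of its RefSeq starts had the run. Only the strand of the gene was searched. The window of Rpl22 lies before the start of the gene in GENCODE (152325742), and that of Rps25 lies after it (44407139). RefSeq starts are not measured start sites, and a window without a run says only that these letters are not within it.

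The first question was how much of the variation of the members lay between the lines and how much between libraries of the same line. For a single member, a median of 72.5% of the sum of squares over the 11 libraries lay between the line means (range 11.5% to 99.6%). The share that would arise without any line effect is 30%, and 4 members were under it. The standard deviation (SD) within lines had a median of 0.167 and ranged from 0.072 (Rps25) to 0.698 (Rpl32l). The line means of a member spanned a median of 0.58, more than 0.5 in 48 members and more than 1 in 13. These spans were not computed over all genes. In the F test over the 4 lines, 27 members passed an adjusted p of 0.05 (14 of the large and 13 of the small subunit). This was 33.8% of the members, and 36.1% of all genes passed, so the members were called about as often as the genes at large.

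The part that the members shared held less of the sum of squares than their individual line differences. The shares expected without any shared shift were not computed, and the individual line differences also hold noise. Taking all 80 members together, a line shift common to them held 12.3% of the sum of squares, and a shift common to them within a line, from library to library, held 8.35%. Line differences of single members held 64.1%, and 15.2% was residual. Among the 77 members with a mean of at least 3, the shared line shift held 12.9%, or 15.4% without Rps25.

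**Figure D1:**
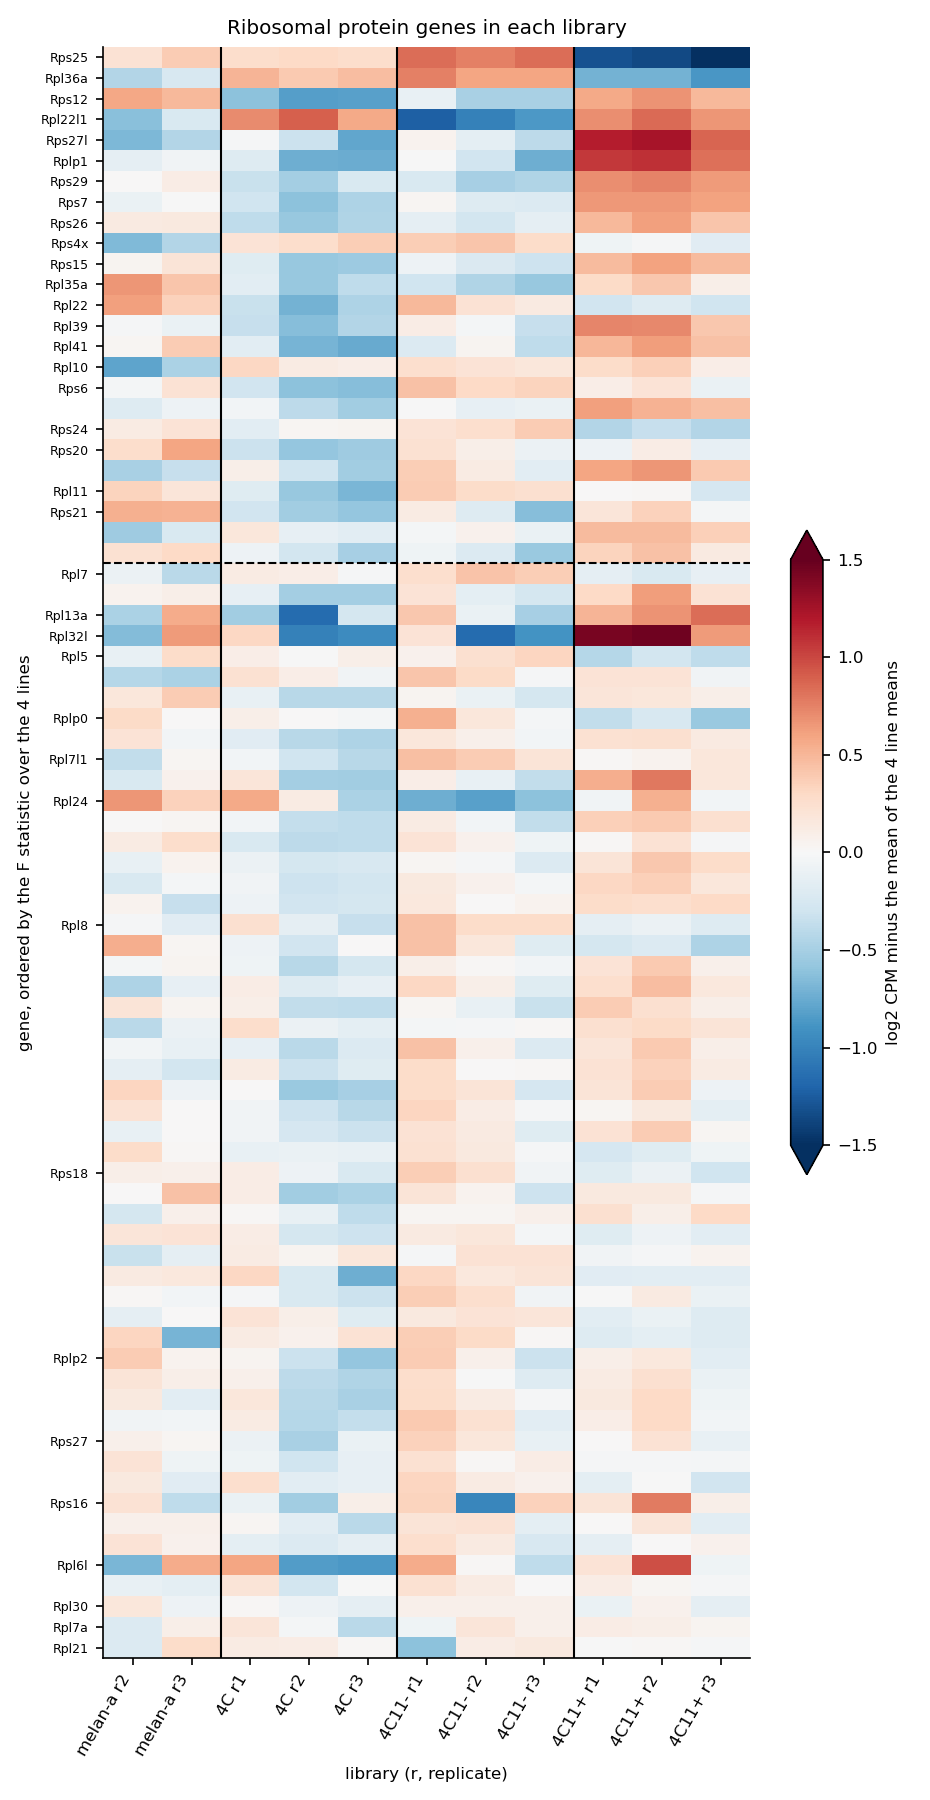
Heat map of 78 of the 80 members (rows, ordered by the F statistic over the 4 lines, with names for those described in the text) in the 11 libraries (columns, r for replicate). Color gives the log2 CPM minus the mean of the 4 line means, with values beyond 1.5 in either direction drawn in the end colors. Above the dashed line are 25 of the 27 members that passed the F test (adjusted p under 0.05), the rows not drawn being the other two, and Rps25 at the top is lowest in the 3 libraries of 4C11+.

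The shared shift was lowest in 4C. The median over the members of the deviation from the mean of the 4 line means was -0.23 for 4C, with an SD of 0.18 over its 3 libraries. It was 0.03 for the 2 libraries of melan-a (SD 0.01), 0.08 for 4C11- (SD 0.14, n = 3) and 0.12 for 4C11+ (SD 0.12, n = 3). Of the 80 members, 49 had their lowest line mean in 4C and 1 had its highest there, whereas 36 had their highest mean in 4C11+ and 29 in 4C11-. These counts were not made over all genes. Other genes with transcripts up to 1 kb had medians of -0.15 in 4C and 0.20 in 4C11+. For the oxidative phosphorylation subunits they were -0.28 and 0.34, and over all genes -0.01 and 0.07. The order of these 2 lines is thus not particular to the members. The 3 libraries of 4C differed from each other, with medians of -0.02, -0.31 and -0.35. The least deviating of them lay between the 3 libraries of 4C11-, which were at 0.21, 0.08 and -0.06, so the groups overlapped.

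Within each mesenchymal-like line, and within 4C11+, whole libraries stood apart in the same direction for most members. In 4C replicate 1, 74 of 80 members were above their mean in the line, against 14 in replicate 2 and 19 in replicate 3. Of all genes, 50% to 52.8% were above their line mean in each of these 3 libraries. In 4C11-, the number was 66 in replicate 1, 44 in replicate 2 and 14 in replicate 3, and of all genes 61.4%, 48.7% and 42.4% were above the mean. In 4C11+, it was 44 in replicate 1, 71 in replicate 2 and 9 in replicate 3 (54.1%, 54.3% and 45.6% of all genes). Melan-a replicates 2 and 3 had 33 and 46 members above the mean of the line.

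Library shifts of the same sign were present in other genes, and in replicates 1 and 3 of 4C11- over all genes as well. The longest transcript of a member had a median length of 886.5 bases, against 3188 bases in other protein-coding genes. In 4C replicate 1 the median deviation from the line mean was 0.18 in the members, 0.20 in 552 other genes with transcripts up to 1 kb and 0.19 in 70 subunits of oxidative phosphorylation, against 0.02 over all genes. In 4C11- replicate 1 the same 3 values were 0.15, 0.31 and 0.27, and all genes were at 0.16, no lower than the members. In 4C11- replicate 3 they were -0.14, -0.26 and -0.25 (-0.09 over all genes), and in 4C11+ replicate 3 -0.11, -0.18 and -0.22 (-0.05 over all genes). The part of transcript length in the shifts of the members was not tested.

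**Figure D2:**
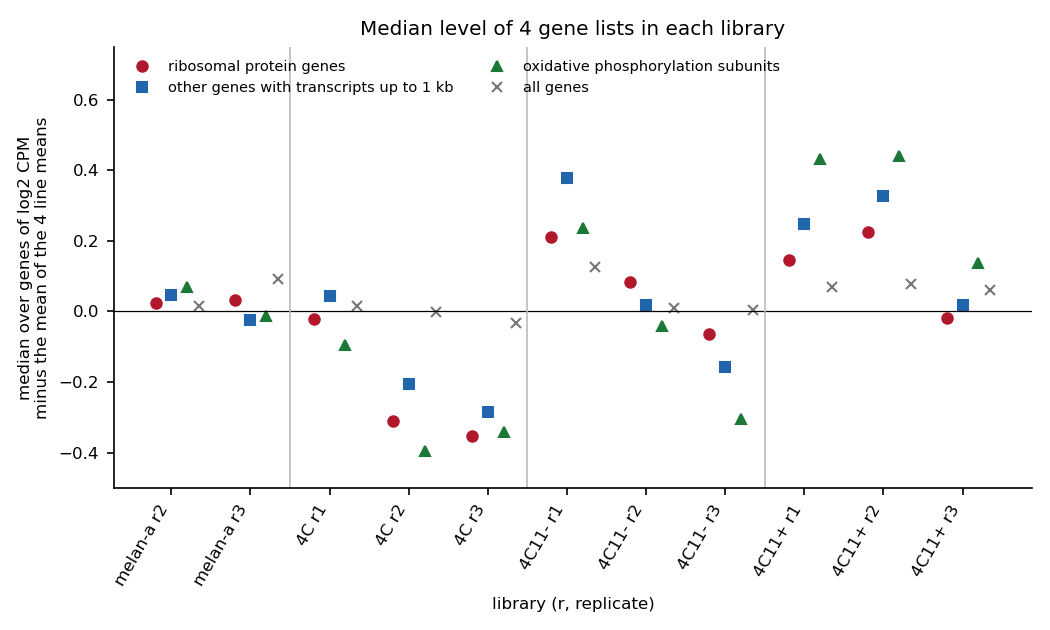
Median over the genes of a list of the log2 CPM minus the mean of the 4 line means (vertical axis) in each library (horizontal axis) for the 80 members, 552 other genes with transcripts up to 1 kb, 70 oxidative phosphorylation subunits and all 14272 genes. In 4C, replicates 2 and 3 lie at -0.31 and -0.35 for the members and replicate 1 at -0.02, and the genes with transcripts up to 1 kb and the oxidative phosphorylation subunits are also higher in replicate 1 than in replicates 2 and 3.

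The comparison of 4C with melan-a addresses the first step of the model. Rps12, Rps21, Rpl22, Rpl35a and Rps20 were lower in 4C, to between 0.41 and 0.53 of the level in melan-a, and Rpl22l1 and the X-linked genes Rpl36a, Rpl10 and Rps4x were higher, by 1.74 to 2.23 times. In all, 12 members were called, against 15.2% of all genes, and the lower ones also included Rpl11 and Rps26. By direction this was 4 of 80 against 7.64% of all genes called higher, and 8 of 80 against 7.55% called lower. The median log2 difference over the members was -0.25, and -0.06 over all genes. The libraries did not overlap for 8 higher and 35 lower members, against 18.6% and 23.5% of all genes (42.1% in both directions). When the libraries were centered on the median of the members, a scale chosen after the data were seen, 6 were called higher and 5 lower.

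Rps12, a small-subunit protein, was at 9.57 and 9.48 in melan-a and at 8.38, 8.16 and 8.18 in 4C. The log2 difference was -1.28 (SE 0.19, adjusted p = 0.000729), a level 0.41 times that of melan-a. Rps21, also of the small subunit, was at 8.50 and 8.49 in melan-a and at 7.68, 7.44 and 7.39 in 4C (difference -0.99, SE 0.24, adjusted p = 0.0172). Rpl35a, of the large subunit, was at 8.88 and 8.64 in melan-a and at 8.06, 7.65 and 7.84 in 4C (difference -0.91, SE 0.21, adjusted p = 0.0116). In none of these genes did a library of 4C reach the lowest library of melan-a. Within 500 kb, 2 of 3 measured genes were called lower in 4C around Rps12, 1 of 12 around Rpl35a and 4 of 16 around Rpl22. Around Rps21, 2 of 16 were called lower and 2 higher. Of all genes, 7.55% were called lower and 7.64% higher. The call of Rps21 was lost without melan-a replicate 2, melan-a replicate 3, 4C replicate 2 or 4C replicate 3 (differences of -0.997 to -0.935, adjusted p from 0.0528 to 0.0644). That of Rpl35a was lost without melan-a replicate 2 (-0.79, adjusted p = 0.0704) or 4C replicate 2 (-0.81, adjusted p = 0.0539).

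Of the 4 X-linked members, 3 were called higher in 4C. Rps4x, the X-linked form of a small-subunit protein, was at 9.62 and 9.85 in melan-a and at 10.49, 10.55 and 10.66 in 4C (difference 0.83, SE 0.17, adjusted p = 0.00656). Rpl10, which joins the large subunit late in its assembly, differed by 0.81 (SE 0.19, adjusted p = 0.0119) and Rpl36a by 0.80 (SE 0.19, adjusted p = 0.0131). The fourth, Rpl39, which lines the exit tunnel of the nascent peptide, had a difference of -0.42 (SE 0.22) and an adjusted p of 0.247. Of the 401 other measured X-linked genes, 79 were called higher and 16 lower in 4C, with a median difference of 0.73. The chromosome was looked at after these 3 members were seen, and its part in their levels was not tested.

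From 4C to the non-metastatic melanoma line 4C11-, few genes of any kind were called. The members had a median difference of 0.26, and 0.01 over all genes, and 3 were called, against 1.67% of all genes. Of these, 2 were higher and 1 was lower, against 1.26% and 0.406%. Rps6, the target of the S6 kinases downstream of mTOR and a hub gene of the study's networks, was at 8.57, 8.24 and 8.21 in 4C and at 9.30, 9.16 and 9.18 in 4C11- (difference 0.87, SE 0.18, adjusted p = 0.0318). Rpl22l1 had the difference in the other direction (-1.75, SE 0.24, adjusted p = 0.00315). The libraries did not overlap for 25 higher members and 2 lower ones, against 11.9% and 7.39% of all genes (19.3% in both directions). The call of Rps6 was lost under 9 alternatives, 7 of which left out a library of 4C, 4C11- or 4C11+, with differences of 0.58 to 0.90 and adjusted p from 0.0638 to 0.155. Without 4C replicate 2, 1 member remained called (Rpl22l1). Leaving out 4C replicate 3, 4C11- replicate 1, 4C11- replicate 2 or 4C11+ replicate 1 also gave 1 call each.

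The comparison of the metastatic line 4C11+ with 4C11- had the largest differences of single members among the 5 comparisons. Rps25 and Rpl36a were lower in 4C11+, to 0.22 and 0.38 of the level in 4C11-, while Rpl22l1, Rplp1, Rps27l and Rps29 were higher by 2.12 to 3.4 times. A total of 24 members were called, against 31.1% of all genes. Of these, 14 were higher and 10 lower, against 15.6% and 15.4%. The median difference was 0.08 over the members and 0.12 over all genes. The libraries of 28 members were higher without overlap and those of 24 lower, against 25% and 22% of all genes (47% in both directions). The count was 15 without 4C11- replicate 2, 12 without 4C11+ replicate 1 and 13 without 4C11+ replicate 2.

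When 4C11+ was set against the mean of the other lines, 25 members were called, against 34% of all genes. Of these, 19 were higher and 6 lower, against 18.3% and 15.8%. The median difference was 0.17, and 0.08 over all genes. The higher group included Rps27l, Rplp1, Rps29, Rps7, Rpl39, Rpl41, Rps15 and Rps26. The lower group included Rps25, Rpl36a, Rps24, Rplp0 and Rpl5. In 17 members the 3 libraries of 4C11+ were above all 8 others and in 5 they were below, against 12.5% and 8.11% of all genes (20.6% in both directions). Centering the libraries on the median of the members gave 16 higher and 10 lower calls. The count was 15 without 4C11+ replicate 1 and 13 without replicate 2. This comparison and that with 4C11- share the libraries of 4C11+ and 4C11-.

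Rps25, a small-subunit protein used by viral and some cellular internal ribosome entry sites, had the largest F statistic and the smallest spread within lines of all members. It was at 11.11 and 11.27 in melan-a, 11.15, 11.19 and 11.15 in 4C, 11.72, 11.64 and 11.72 in 4C11-, and 9.58, 9.53 and 9.39 in 4C11+. The 3 libraries of 4C11+ were thus below all other libraries. The log2 difference was -2.19 against 4C11- (SE 0.15, adjusted p = 8.08e-07) and -1.85 against the mean of the other lines (SE 0.12, adjusted p = 8.36e-07), which is 0.28 times their level.

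The genes around Rps25 on chromosome 9 were also lower in 4C11+. Rps25 lies on the plus strand at chr9:44407139-44410427 (GRCm38, GENCODE M21). Of 44 measured genes within 500 kb, 28 were called lower and 0 higher in 4C11+ when set against the other lines, with a median difference of -1.07, whereas 15.8% of all genes were called lower. Among the 92 measured genes whose start lies from 4 Mb before to 6 Mb after that of Rps25, 60 were called lower and 3 higher, with a median of -1.14. Among the 739 other measured genes of the chromosome, 77 were called lower and 246 higher, with a median of 0.52. In the 2 Mb before this stretch 0 of 4 genes were called lower, and in the 2 Mb after it 0 of 20. These surroundings were examined, and their limits set, after the values were seen. Rps27l and Rplp1, which are higher in 4C11+, lie on the same chromosome outside this stretch.

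**Figure D3:**
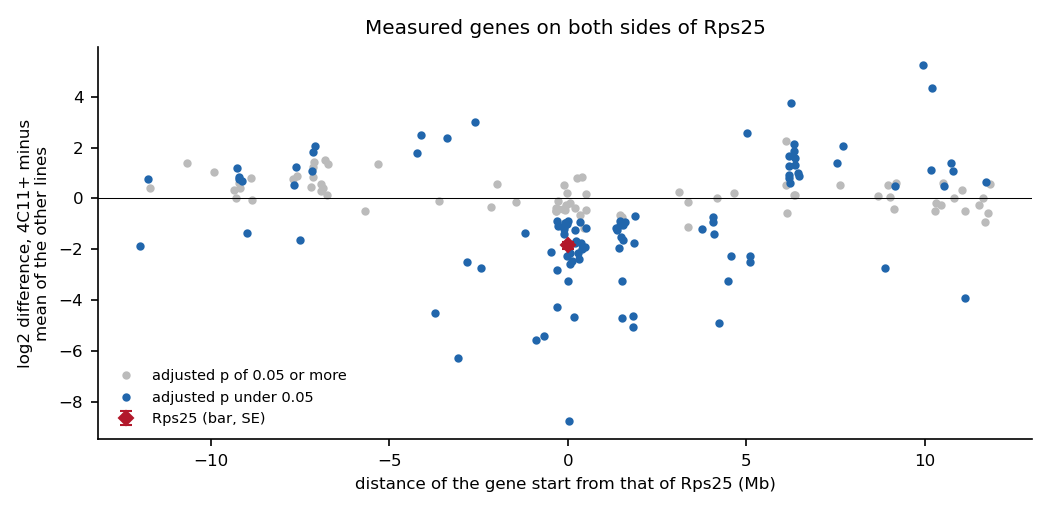
Log2 difference of 4C11+ minus the mean over the other lines (vertical axis) of each measured gene within 12 Mb on either side of Rps25, by the distance of its start from that of Rps25 (horizontal axis, Mb). Rps25 is the diamond at -1.85 with its SE, and blue points have an adjusted p under 0.05. Most points from -4 to 6 Mb are below 0, and most of those beyond are above 0.

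Through the acidic stalk the large subunit binds the translation factors that hydrolyze GTP. Of its genes, Rplp1 was called higher and Rplp0 lower in 4C11+, and Rplp2 was not called. Rplp1 was at 9.46 and 9.54 in melan-a, 9.40, 8.86 and 8.85 in 4C, 9.59, 9.31 and 8.86 in 4C11-, and 10.66, 10.70 and 10.43 in 4C11+. In 4C11+ against the other lines its difference was 1.33 (SE 0.19, adjusted p = 0.000243), a level 2.52 times as high. Rplp0, the base of the stalk, was lowest in 4C11+, at 10.74, 10.87 and 10.55 against 11.07 to 11.64 in the other 8 libraries (difference -0.51, SE 0.16, adjusted p = 0.0243). Rplp2, the partner of Rplp1, was between 7.90 and 8.86, and 4C11+ overlapped with each of the other lines (difference 0.03, SE 0.19, adjusted p = 0.91). Its libraries of 4C were below those of melan-a without overlap, but the difference was not called (-0.50, SE 0.26, adjusted p = 0.247). Within 500 kb of Rplp1, 0 of 5 measured genes were called in this comparison.

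Among the other members called higher in 4C11+, Rps29, a small zinc-binding protein, was at 8.60, 8.65 and 8.54 there and between 7.40 and 8.01 in the other libraries (difference 0.92, SE 0.14, adjusted p = 0.000472). Of 14 measured genes within 500 kb of it, 7 were called higher and 0 lower. Rps7, which can bind Mdm2, was at 9.74, 9.75 and 9.70 in 4C11+ and between 8.48 and 9.13 elsewhere (difference 0.85, SE 0.14, adjusted p = 0.00066). Rpl5, which with Rpl11 forms the particle that binds Mdm2, was lower in 4C11+ (9.32, 9.46 and 9.36) than in the other libraries (9.64 to 10.07), with a difference of -0.48 (SE 0.14, adjusted p = 0.0196). Rpl11 was not called in this comparison (difference -0.10, SE 0.15, adjusted p = 0.6365). Mdm2 itself, which is no member, had a mean of 8.02 in 4C11+ and of 5.52 to 5.66 in the other lines (difference 2.41), and Trp53, which encodes p53, one of 5.22 in 4C11+ and of 5.82 to 6.82 in the others (difference -1.23). Both were called.

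**Figure D4:**
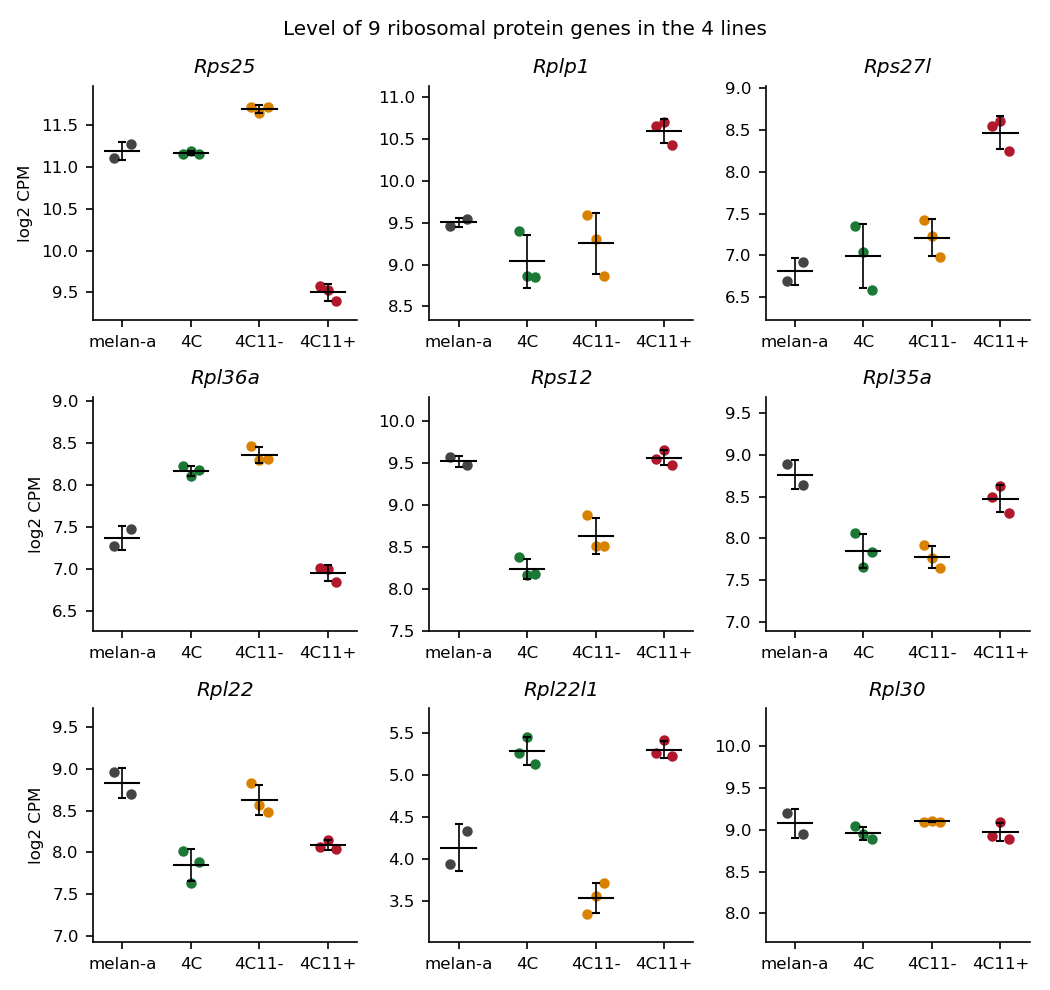
Log2 CPM (vertical axes, each spanning 2.8) of 9 members in the libraries of the 4 lines, with points for libraries, horizontal lines for means and bars for the SD (n = 2 in melan-a and 3 in the other lines). Rps25 is lowest and Rplp1 and Rps27l are highest in 4C11+, Rps12 and Rpl35a are higher in melan-a and 4C11+ than in 4C and 4C11-, and Rpl30 lies between 8.88 and 9.20 in every library.

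The paralog pairs were followed together. Rpl22 and Rpl22l1 encode proteins that can take the same place in the large subunit, and Rpl22 is known to repress Rpl22l1. Rpl22 was at 8.96 and 8.70 in melan-a and at 8.83, 8.57 and 8.49 in 4C11-, and lower in 4C (8.02, 7.64 and 7.89) and 4C11+ (8.07, 8.15 and 8.04). Rpl22l1 was at 3.93 and 4.33 in melan-a and at 3.34, 3.55 and 3.71 in 4C11-, and higher in 4C (5.27, 5.46 and 5.13) and 4C11+ (5.26, 5.41 and 5.22). For both genes the libraries of melan-a and 4C11- did not overlap with those of 4C and 4C11+, and the direction was opposite. The log2 difference between Rpl22 and Rpl22l1 had means of 4.70 (SD 0.47, n = 2) and 5.10 (SD 0.36, n = 3) in melan-a and 4C11-, and of 2.56 (SD 0.33, n = 3) and 2.79 (SD 0.04, n = 3) in 4C and 4C11+. This division of the lines was noticed in the data and carries no test. In the comparisons of the design, Rpl22 was lower in 4C than in melan-a (-0.98, SE 0.20, adjusted p = 0.00656) and lower in 4C11+ than in 4C11- (-0.54, SE 0.18, adjusted p = 0.0411). Rpl22l1 was higher in 4C than in melan-a (1.15, SE 0.27, adjusted p = 0.0126), and higher in 4C11+ than in 4C11- (1.77, SE 0.24, adjusted p = 0.000192). The call of Rpl22l1 in 4C was lost without melan-a replicate 2 (0.95, adjusted p = 0.0801) and without 4C replicate 2 (1.07, adjusted p = 0.0617).

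Rps27l, a paralog of Rps27 and a known target of p53, was at 6.70 and 6.93 in melan-a, 7.35, 7.04 and 6.59 in 4C, 7.43, 7.23 and 6.98 in 4C11-, and 8.55, 8.61 and 8.24 in 4C11+. Against the mean of the other lines the difference was 1.46 (SE 0.19, adjusted p = 0.000164), a level 2.75 times as high. Of 10 measured genes within 500 kb of Rps27l, 3 were called higher and 0 lower, against 18.3% and 15.8% of all genes. Rps27 was between 7.62 and 8.46, and 4C11+ overlapped with each of the other lines (difference 0.05, SE 0.16, adjusted p = 0.834). Its libraries of 4C were below those of melan-a without overlap, but the difference was not called (-0.28, SE 0.22, adjusted p = 0.4725). The log2 difference between Rps27 and Rps27l had a mean of 1.35 in melan-a (SD 0.20), 0.89 in 4C (SD 0.47), 1.03 in 4C11- (SD 0.02) and -0.32 in 4C11+ (SD 0.10). Since these values were not divided by the length of the transcript, they compare lines and not the paralogs with each other. Rpl7 was lower in 4C11+ than in 4C11- (-0.51, SE 0.16, adjusted p = 0.0288), and its paralog Rpl7l1 passed no comparison, its difference there being -0.26 (SE 0.19, adjusted p = 0.316).

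The mesenchymal-like lines were set against the epithelial lines, the division of the model that crosses malignancy. Rps12, Rplp1, Rpl35a, Rps29 and Rpl41 were lower in the mesenchymal-like lines, to between 0.46 and 0.61 of the epithelial level, and Rpl36a and Rps25 were higher, by 2.15 and 2.12 times. In all, 21 members were called, against 29.7% of all genes. Of these, 5 were higher (Rpl36a, Rps25, Rps4x, Rpl7 and Rpl10) and 16 lower, against 14.3% and 15.3%. The median was -0.13, and -0.09 over all genes. The libraries of both mesenchymal-like lines were above those of both epithelial lines in 3 members and below them in 7, against 6.82% and 7.06% of all genes (13.9% in both directions). Rps25, Rplp1 and Rpl41 were not among them, since libraries of melan-a and of the mesenchymal-like lines overlapped. Centering on the median of the members turned the split to 14 higher and 11 lower.

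Rps12 had the largest absolute difference of the members that separated the phenotypes, at 9.48 to 9.66 in the epithelial libraries and 8.16 to 8.88 in the mesenchymal-like ones (difference -1.11, SE 0.13, adjusted p = 4.85e-05). All 3 measured genes within 500 kb of it were called lower as well, with a median difference of -1.80. Rpl36a, a large-subunit protein at the tRNA exit site, was at 7.27 and 7.47 in melan-a and 6.84 to 7.01 in 4C11+, against 8.10 to 8.46 in the 6 mesenchymal-like libraries (difference 1.10, SE 0.13, adjusted p = 3.92e-05). Of 11 measured genes within 500 kb of Rpl36a, 4 were called higher and 2 lower. In 4C11+ against the other lines, 6 of these 11 were called lower and 2 higher, with a median difference of -0.86. Of all genes, 15.8% were called lower and 18.3% higher there. Rpl36al, the autosomal relative of Rpl36a, which is no member, had a mean of 3.32 in 4C11+ and 1.19 to 1.37 in the other lines. It did not pass the comparison of the phenotypes (difference -1.06, adjusted p = 0.0513). Rpl35a was at 8.31 to 8.88 in the epithelial and 7.65 to 8.06 in the mesenchymal-like libraries (difference -0.80, SE 0.14, adjusted p = 0.00103), and 8 of 12 measured genes within 500 kb were called lower and 0 higher. Rps26, near the exit of the mRNA channel, was at 8.74 to 9.21 and 8.03 to 8.46 (difference -0.65, SE 0.12, adjusted p = 0.00144), and of 42 measured genes within 500 kb 15 were called lower and 2 higher.

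**Figure D5:**
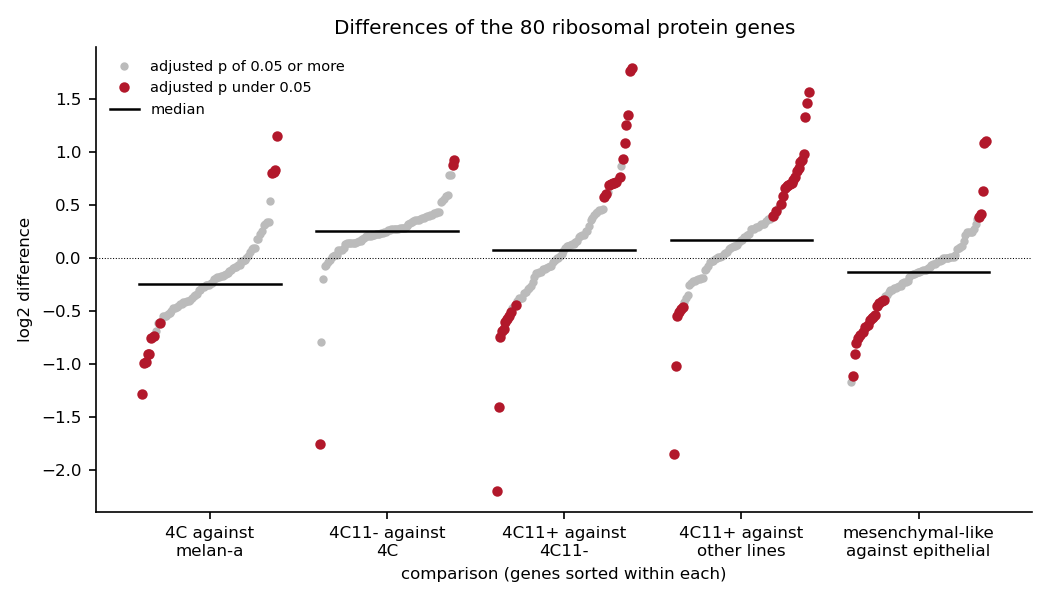
Log2 differences of the 80 members (points, sorted within each comparison) in the 5 comparisons (horizontal axis), with the median as a line and members with an adjusted p under 0.05 in red. The medians lie at -0.25, 0.26, 0.08, 0.17 and -0.13 from left to right, and the lowest point is Rps25 in 4C11+ against 4C11-, at -2.19.

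At the other end of the ranking by the F statistic, Rpl21 (adjusted p of the F test = 0.861), Rpl7a (0.811) and Rpl30 (0.803) had the smallest values. Rpl30, a large-subunit protein that represses its own splicing in yeast, was between 8.88 and 9.20 in all 11 libraries. Rps16 was the member of high expression with the largest spread within lines (SD 0.51), at 8.09, 6.79 and 8.11 in the 3 libraries of 4C11-. The low pseudogene Rpl32l was at 3.27, 3.32 and 2.49 in 4C11+ and between 0.70 and 2.49 in the other libraries, and each of its values rested on 9 to 40 reads. Its difference between 4C11+ and 4C11- was 1.79 (SE 0.55, adjusted p = 0.0275), and the call was lost without 4C11- replicate 2, 4C11- replicate 3, 4C11+ replicate 1 or 4C11+ replicate 2 (1.52 to 1.67, adjusted p from 0.0759 to 0.103). Of 64 measured pseudogenes with -ps in their symbol, 10 were called higher in 4C11+ than in 4C11- (15.6%, the same share as of all genes) and 0 lower (15.4% of all genes), with a median difference of 1.32. Their level was low, with a median of -0.70 to 1.58 in a library. Their median deviation from the mean of the 4 line means was 0.27, -0.26 and -1.05 in 4C11-. In 4C11+ it was 1.01, 1.27 and 0.34, so the libraries of each line differed widely.

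Genes that work with the members were taken from lists, whose counts are read against 36.1% of all genes in the F test, and 18.3% called higher and 15.8% lower in 4C11+ against the other lines. Of the 5 measured cytosolic ribosomal proteins whose names lie outside the rule, 2 passed the F test, Rpl36al and Rpsa. Rpsa had its highest mean in 4C11+ (10.84) and its lowest in 4C (10.06). Of 20 translation factors and other genes with the same type of mRNA start, 2 passed the F test (10%, Eef2 and Tpt1), and 4 were called higher and 0 lower in 4C11+ against the other lines. Of 42 ribosome biogenesis factors 7 passed the F test (16.7%), with 6 called higher and 2 lower in 4C11+. Of 77 mitochondrial ribosomal proteins 23 passed (29.9%), and 27 were called higher and 2 lower in 4C11+, with a median of 0.44, against 0.17 in the members. Of 70 oxidative phosphorylation subunits 24 passed (34.3%), with 27 higher, 0 lower and a median of 0.45.

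Of 18 regulators of the synthesis of ribosomal proteins, 6 passed the F test (33.3%, against 36.1% of all genes). Akt1, a kinase upstream of mTOR, had its highest mean in 4C11+ (10.02, against 8.08 to 8.70), as did Eif4ebp2, a repressor of cap-dependent initiation (6.40, against 5.15 to 5.48), and Mdm2. Larp1, which binds the pyrimidine run at the mRNA start, was lower in melan-a (6.93) than in the other lines (7.70 to 8.02), and its difference between 4C and melan-a was 1.08 (adjusted p = 0.0255). Mycn, a transcription factor that drives ribosome biogenesis, had its highest mean in 4C11- (1.62), and was at 0.14 in melan-a, -2.49 in 4C11+ and -1.96 in 4C. All these means of Mycn are far below the median of 4.57 over all genes and rest on few reads. Myc (adjusted p of the F test = 0.693) and Mtor (0.09) did not pass.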

How the data were processed

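The deposited values are log2 CPM of 11 libraries of total RNA, made by the authors from paired reads of 100 nt. Per the labels and the Methods, reads were trimmed with Trimmomatic, aligned with STAR to the mouse genome (GRCm38, Ensembl 90) and counted per gene with Rsubread. The filter of the authors kept what reached 1 CPM in 4 or more libraries, and voom of limma was applied. All libraries share a highest value of 13.69, as after a quantile normalization, which the Methods do not name. The values were used without further scaling. Each line received a mean in limma 3.58.1 (R 4.3.3), over all 11 libraries, with a mean-variance trend, two-sided tests and Benjamini-Hochberg adjustment over all 14272 genes at 0.05. The fit was tested on simulated data. Summaries and figures used Python 3.11.15, NumPy 2.4.6, pandas 2.3.3 and matplotlib 3.10.9.

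Symbols came from the reference tables, and 24 gene IDs had none. Lengths, positions and shared 100-base stretches came from GENCODE M21 (GRCm38), and start windows from RefSeq. The members and lists were chosen with earlier results of these data known. Named for each comparison and the F test were up to 5 called members with the largest absolute difference (or F) and no overlap of libraries, the stalk genes, the paralog pairs, Rps6, and the members with the highest and lowest means, the largest spread within lines and the smallest F. X-linked members, Rps7, Rpl5 and Rps20 as further called members, the lists by transcript length, chromosome and -ps symbols, and the chromosome surroundings were chosen after their values were seen. The other alternatives were another scaling, a filter on low values, the variance model, the replicate number as a block, and each library left out in turn. Some genes that these rules name are not reported here.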

Additional observations from a re-analysis of the deposited data

How the results depend on the processing

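Of 23 named differences under 20 alternatives, 433 of 460 values kept their direction and their side of the threshold, 27 lost the call and 0 changed direction. Under every alternative, 17 of the 23 kept the call. All 23 had been chosen as called, so they could only lose it. The alternatives that rescale whole libraries to a common distribution, median or sum could change little. The libraries already shared a highest value of 13.69 and had medians of 4.565 to 4.576. Without the mean-variance trend, 1 member was called in 4C11- against 4C. Library weights estimated with the default method of limma, which stopped before it converged and left 4C11- replicate 2 almost without weight, gave 62 calls in the F test, 5 for 4C11- against 4C and 46 for 4C11+ against the other lines. Estimated gene by gene, a method added after these counts were seen, they gave 68, 34 and 46, and 53 in 4C11+ against 4C11-, so that these counts depend on how the libraries are weighted. With 1 library left out at a time, the F test gave 20 to 32 calls, 4C against melan-a 6 to 16, 4C11- against 4C 1 to 4, 4C11+ against 4C11- 12 to 27, 4C11+ against the other lines 13 to 29 and the phenotypes 14 to 25, with a median share between lines of 70% to 82%. In 4C against melan-a, the count was 6 without melan-a replicate 2, 7 without melan-a replicate 3 and 6 without 4C replicate 2. A lone library of melan-a was then assumed to vary like the other lines.

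Centering on the median of the members moved their median difference to 0.04 for 4C against melan-a, to -0.04 for 4C11- against 4C and to 0.02 for the phenotypes, as it is built to do. Same-numbered libraries deviated together in part (correlations from -0.23 to 0.39, over 0.1 in 8 of 15 pairs, among them all 3 pairs of replicate 1 and 4 of 6 of replicate 3, but 1 of 6 of replicate 2), and 4 of 11 libraries correlated best with one of their own number. Differently numbered libraries had correlations from -0.42 to 0.34, and the deviations of the 2 melan-a libraries mirror each other by construction. The numbers were not treated as pairs in the main fit, and whether a number marks a shared batch was not tested. With the replicate number as a block, the counts were 30 in the F test, 12, 3, 23 and 24 in the first 4 comparisons and 24 between the phenotypes. Among the members, the depth limits the pseudogenes and Rpl24, whose values rest on 9 to 70 reads. Outside the members it limits genes of low level such as Mycn and the pseudogenes with -ps in their symbol.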
